A study of Sus scrofa with 5 samples.

Results

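Cytotoxic T cells that resemble intraepithelial lymphocytes were followed in the cecum of the suckling piglet from birth to 21 days of age. They were chosen by the transcripts of single cells. A cell of at least 200 detected genes was taken if it carried at least 2 UMIs (unique molecular identifiers, each marking 1 captured RNA molecule) of CD3E and CD3G together, at least 2 UMIs of XCL1, KLRK1, CRTAM and ZNF683 together, at most 1 UMI of MKI67 and TOP2A together and no UMI of EPCAM. This held for 6842 of 72701 cells. Each of the 5 ages (d0, d1, d7, d14 and d21) was 1 library of cecal mucosal cells, freed with EDTA and a short trypsin step, in which the cells of 5 piglets had been mixed. The animals were full-term Large White piglets on maternal milk alone, given as male in the labels, and they received no treatment. The ages therefore differed in 1 library each, so that age and library cannot be told apart, animals could not be separated and no test between ages was made. Surface protein, position in the epithelium and receptor sequence were not measured in these data.

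Intraepithelial lymphocytes lie between the epithelial cells of the gut. Many of them are T cells that carry CD8, hold granules of granzymes and perforin ready for release, and express receptors otherwise known from natural killer (NK) cells, such as NKG2D, the product of KLRK1. The integrin chain CD103, encoded by ITGAE, binds E-cadherin on the epithelium, and the receptor CCR9 directs lymphocytes to the intestine. So-called natural intraepithelial T cells are known for CD8 made of 2 alpha chains, for little CD4, CD5 and CD28, and for the signalling adaptor FCER1G. Of the genes used for the choice, CD3E and CD3G encode chains of the T cell receptor complex, XCL1 a chemokine, CRTAM an adhesion receptor of activated cytotoxic cells and ZNF683 the transcription factor HOBIT of tissue-resident lymphocytes. MKI67 and TOP2A mark dividing cells and EPCAM marks epithelium.

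The chosen cells numbered 177 in the newborn library, 108 at d1, 1122 at d7, 1971 at d14 and 3464 at d21. Their median depth was 2245, 2814, 4230, 4318 and 4482 UMIs per cell, and their summed counts were 448459, 358697, 5479869, 10633001 and 17806674. The d0 and d1 values thus rest on about as many cells as a small cluster and carry much wider counting intervals than the later ages. A count of 0 allows a level of up to 0.0669, 0.0836, 0.00548, 0.00282 and 0.00169 per 10000 counts in the 5 libraries in that order (3 counts of the total). Levels below are summed counts of a gene per 10000 counts of the same cells, with exact Poisson 95% intervals where they are drawn or called, which cover counting error only. The counts come from the 3' end of transcripts, so levels of different genes are not compared per length.

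Some cell barcodes occurred in more than 1 library. Among the chosen cells 1, 2, 19, 37 and 44 had such a barcode, and leaving these cells out changed the main counts little, as given below. No doublets were removed. Cells that met the rule but for a UMI of EPCAM numbered 57, 84, 90, 31 and 188, which was 24.4%, 43.8%, 7.43%, 1.55% and 5.15% of themselves and the chosen cells together. Transcripts of other cell types were present at every age. A list of 41 genes was used, of B cells, plasma cells, myeloid cells, mast cells, epithelium, stroma and endothelium. At least 2 UMIs of these genes in sum were found in 49.7%, 88.9%, 65.4%, 67.3% and 66.0% of the chosen cells. That list includes XBP1 and KIT, which T cells also express.

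By type, the summed level of the 6 B cell genes was between 0.0279 and 0.447, led by CD79B, with 5 of the 6 genes at 0 in each of the d0 and d1 libraries. The 5 plasma cell genes summed to 0.491, 0.809, 0.673, 4.60 and 6.68, led by JCHAIN, the joining chain of secreted antibodies. Myeloid genes (8) summed to 0.0669, 3.60, 2.30, 6.38 and 0.852, led by C1QA, with 5 of them at 0 at d0. The 8 epithelial genes were highest in the youngest libraries, at 8.23, 6.19, 3.14, 0.550 and 1.24, led by FABP1, the fatty acid binding protein of enterocytes. Stromal and endothelial genes (9) reached 0.602, 12.2, 1.40, 10.2 and 3.09, led by COL3A1, with 8 of them at 0 at d0. Mast cell genes (5) and genes of type 3 innate lymphoid cells (ILC3, 6 genes) stayed under 2 at each age, and KIT led both sums. Erythroid genes stood at 35.5 at d7 and at 1.29 or below elsewhere, and HBB, a haemoglobin chain, made up nearly all of it. The part of these RNAs in the differences between ages was not tested.

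The label was first read against the genes of the rule, which by construction cannot be a finding. CD3E was detected in 89.4% of the chosen cells and CD3G in 90.7%. KLRK1 was seen in 77.8%, XCL1 in 73.1%, CRTAM in 46.2% and ZNF683 in 37.3%. All 4 of these genes were detected together in 10.7% of the cells, 3 in 30.9%, 2 in 40.4% and only 1 in 17.9%. The choice is therefore a threshold on a sum, not a cluster, and cells near it were many. Exactly 2 UMIs of the 4 genes were found in 1101 chosen cells, and 1704 further CD3 cells had 1 UMI and belonged to no group. CCL5, a chemokine gene outside the rule, had a level of 49.0 in CD3 cells with none of the 4 genes' UMIs, 115 with 1, 161 with 2, 186 with 3 and 203 with 4 or more. CD4 had levels of 0.893, 0.401, 0.163, 0.0549 and 0.0340 in the same order, all pooled over the 5 libraries. Within each library, CCL5 in the cells with 1 UMI lay between the cells with none and the chosen cells (51.4, 140 and 187 at d0, and 84.1, 152 and 224 at d21). For CD4 the same order held at d7, d14 and d21, while at d0 and d1 it had at most 7 counts in any of these groups.

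Genes outside the rule that mark T cells and cytotoxic granules were present at each age. CD247, the zeta chain of the T cell receptor complex, had levels of 2.94, 1.95, 4.33, 3.98 and 4.67 from d0 to d21, and LCK, the kinase beside it, 1.65, 1.23, 2.69, 3.29 and 2.31. NKG7, a granule membrane protein, was detected in 52.0%, 49.5%, 59.7%, 57.2% and 55.7% of the cells after thinning to 1000 UMIs per cell, and in 71.8%, 75.9%, 88.8%, 90.0% and 88.7% without thinning. In epithelial cells of the same libraries, which should lack it, the thinned share was between 0.0919% and 2.70%. Thinning kept 173, 107, 1100, 1940 and 3429 of the chosen cells, and the median depth of the epithelial cells was 6876, 7799, 17700, 8580 and 4792 UMIs. CCL5 was detected in 91.9%, 72.9%, 91.9%, 95% and 98.2% of the thinned chosen cells and in 0.735%, 1.64%, 11.2%, 11.6% and 52.1% of the thinned epithelial cells. The d21 library thus held CCL5 in many cells that should not make it, and shares of CCL5 at d21 carry that background. The CD8 chains were detected in few cells at this depth. CD8A had a UMI in 15.5% and CD8B in 3.56% of the thinned cells at d21, both in 0.875%. In thinned epithelial cells of d21 these shares were 2.19% for CD8A and 0.169% for CD8B. Separate constant regions of the alpha, beta, gamma and delta chains of the receptor were not analysed here, so that alpha-beta and gamma-delta T cells were not told apart.

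These cells made up 1.16% of the kept cells at d0 (exact 95% interval 0.999% to 1.35%), 0.764% at d1 (0.627% to 0.921%), 10.9% at d7 (10.3% to 11.5%), 12.2% at d14 (11.7% to 12.7%) and 20.5% at d21 (19.9% to 21.1%). The share was highest at d21 and its interval lay apart from those of the 4 younger libraries. Without cells carrying 2 or more UMIs of other cell types the d21 interval (21.0% to 23.2%) overlapped that of d14 (18.7% to 21.5%). Under that limit the share was 5.93% at d0 and 2.47% at d1. The limit also left only 1500, 486, 3161, 3213 and 5338 of the kept cells from d0 to d21. Shares under it are therefore of a smaller total and not of all kept cells. Among cells under 20% mitochondrial counts the share was 2.74% at d0. After thinning all cells to 1000 UMIs the share was 4.05% at d7 and 3.48% at d14. The CD3 cells as a whole, chosen or not, made up 2.10%, 1.37%, 22.6%, 28.6% and 32.7% of the kept cells. Of the CD3 cells, the chosen ones were 55.5% at d0 (49.8% to 61.0%), 55.7% at d1 (48.4% to 62.8%), 48.4% at d7 (46.4% to 50.5%), 42.6% at d14 (41.1% to 44.0%) and 62.7% at d21 (61.4% to 63.9%). The d14 share was the lowest of the 5, the d0 and d1 intervals overlapped that of d7, and the d1 interval also that of d21. After thinning all cells to 1000 UMIs these shares were 30.1%, 37.2%, 27.2%, 18.6% and 30.55% from d0 to d21. The d21 share was then not the highest. Without cells carrying 2 or more UMIs of other cell types they were 55.6% at d0 and 55.5% at d21. On the log2 scale the share among kept cells differed by 3.84 between d7 and d1 and by 0.91 between d21 and d7. Without cells carrying 2 or more UMIs of other cell types, which were 88.9% of the chosen cells at d1, the first of these was 2.31. That value is over the smaller total given above. The share among CD3 cells differed by only 0.37 between d21 and d7. Depth per cell changes how many cells reach 2 UMIs, and after thinning all cells to 1000 UMIs this last value was 0.17. A library is a mixture, and a larger share can come from more of these cells or from fewer of the others. Dividing counterparts, which met the rule but for 2 or more UMIs of MKI67 and TOP2A, numbered 3, 5, 305, 503 and 1143, or 1.67%, 4.43%, 21.4%, 20.3% and 24.8% of themselves and the chosen cells.

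**Figure D1:**
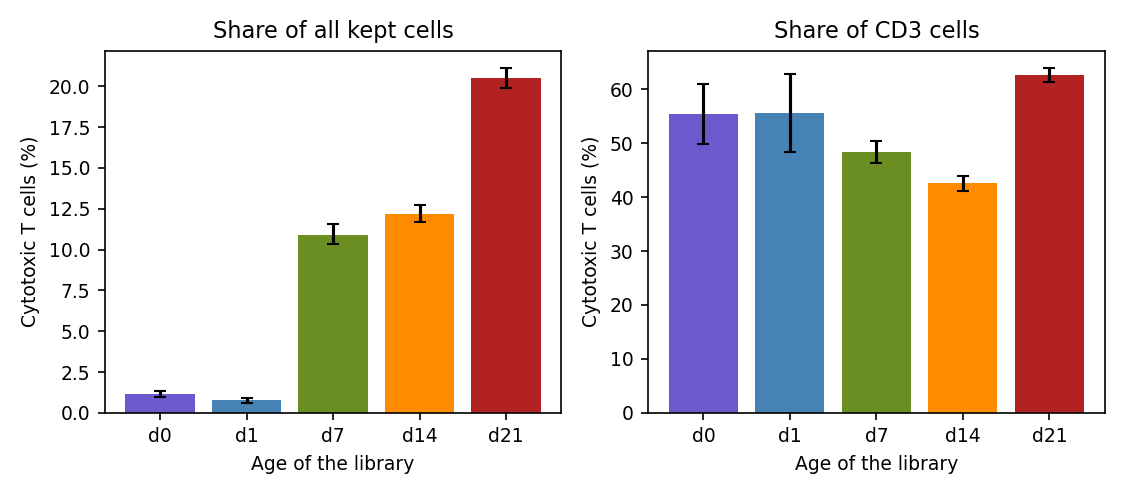
Share of the cytotoxic T cells among all kept cells (left) and among CD3 cells (right) in percent, 1 bar per library, with exact 95% intervals for counting error only. The left bars run from 0.764% at d1 to 20.5% at d21, and the right bars from 42.6% at d14 to 62.7% at d21.

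Other T cells of the same libraries were used to describe what set the chosen cells apart. The comparison cells met the same CD3, division and EPCAM limits and had no UMI of the 4 cytotoxic genes. They numbered 79, 66, 880, 2091 and 1328, with a median of 1881, 2789, 4008, 3624 and 2536 UMIs, below the chosen cells of the same library each time (2245, 2814, 4230, 4318 and 4482). Counts were summed per library and group and tested with the edgeR quasi-likelihood test with library as a block, so that each difference was measured within 5 libraries. The cells had been sorted into groups by 9 genes measured in the same cells. The adjusted p-values therefore say only whether a difference recurred over the 5 libraries, not that the cells are a type of their own. Of 11877 genes tested, 633 (5.33%) were higher and 727 (6.12%) lower in the chosen cells at an adjusted p under 0.05. Without the d7 library 335 were higher and 446 lower, and without the d14 library 354 and 430. Without the cells of shared barcodes 629 and 719 genes passed, and with d7, d14 and d21 only 513 and 649.

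Of the 14 genes of the T cell receptor complex that were measured, 2 were higher, 6 were lower and 6 did not pass, with a median log2 difference of -0.17 against -0.00 for all genes tested. CD247 and CD8A were the higher pair. CD8A, the alpha chain of CD8, had levels of 0.401, 0.362, 1.49, 1.65 and 1.65 in the chosen cells and 0.180, 0.0510, 0.540, 0.925 and 1.39 in the other T cells. It was higher in each of the 5 libraries, least so at d21 (log2 difference 0.88, SE 0.15, adjusted p = 0.000311). CD8B, the beta chain, had a difference of 0.34 (adjusted p = 0.131) and did not pass. CD4, the co-receptor of helper T cells, had levels of 0, 0.0836, 0.0602, 0.0677 and 0.0404 against 0.421, 0.306, 0.812, 0.992 and 0.782. The groups did not overlap, and CD4 had the largest fall among genes of at least 0.5 per 10000 counts that were lower in every library (-3.94, SE 0.17, adjusted p = 4.79e-12). CD5, which restrains T cell receptor signalling, stood at 0.201 to 0.558 in the chosen cells and at 0.612 to 1.52 in the other T cells (-1.43, SE 0.11, adjusted p = 2.21e-08). LAT, the scaffold on which the receptor signal is assembled, was lower by a similar amount (-1.51, SE 0.11, adjusted p = 9.37e-09), and so was CD28, the classical co-stimulatory receptor (-2.03, SE 0.27, adjusted p = 2.01e-05, lower in 4 of 5 libraries and at 0 in both groups at d0).

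Granule genes were mostly higher. Of the 15 genes of the list for cytotoxic granules and death ligands, 9 were higher and 2 lower, with a median of 0.49. NKG7 had levels of 8.92, 6.69, 10.2, 9.29 and 8.93 in the chosen cells and 3.91, 0.816, 1.64, 2.40 and 3.77 in the other T cells (log2 difference 1.94, SE 0.17, adjusted p = 6.57e-08). The groups did not overlap. PRF1, the pore-forming perforin, was higher in 5 of 5 libraries (1.65, SE 0.25, adjusted p = 8.60e-05), as were GZMA, a granzyme of tryptase type (1.43, SE 0.16, adjusted p = 2.02e-06), and CTSW, a cathepsin of cytotoxic lymphocytes (1.28, SE 0.18, adjusted p = 2.78e-05). SRGN, the proteoglycan on which granule contents are packed, was lower in each library (-0.82, SE 0.11, adjusted p = 3.53e-05), and RAB27A, needed for granule release, was lower too (-0.61, SE 0.11, adjusted p = 0.000518).

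GNLY and GZMB behaved differently between libraries. GNLY, the pore-forming granulysin, had levels of 22.5, 35.5, 27.5, 22.6 and 7.20 in the chosen cells and 23.0, 0.357, 1.81, 3.59 and 6.26 in the other T cells. The groups were far apart at d1, d7 and d14, nearly equal at d21 and reversed by a small margin at d0. The fitted difference was 2.25 (SE 0.50, adjusted p = 0.00444, higher in 4 of 5 libraries), and with the DESeq2 test it was 2.50 and did not pass. GZMB, the granzyme that triggers cell death through caspases, had levels of 9.54, 4.52, 3.86, 7.54 and 7.28 against 6.80, 0.0510, 1.35, 6.32 and 6.80. Its difference of 0.87 (SE 0.26, adjusted p = 0.0330) came mostly from d1 and d7, and it did not pass in 7 of 15 alternatives, among them without d0 (0.91), without d7 (0.71) and with DESeq2 (1.25).

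NK receptors and their adaptors were mostly higher as well. Of 15 members tested, 10 were higher and 2 lower, with a median of 1.10. FCER1G, the adaptor shared by Fc and NK receptors, had levels of 8.34, 4.32, 7.02, 6.56 and 6.32 against 2.83, 0.561, 1.16, 1.82 and 1.36. No library of the other T cells reached the lowest level of the chosen cells (2.19, SE 0.14, adjusted p = 7.43e-10). CD96, an adhesion receptor, had 2.01, 1.48, 2.19, 2.17 and 1.99 against 0.541, 0.153, 0.326, 0.364 and 0.743 (2.27, SE 0.16, adjusted p = 5.37e-09), and CD244, a receptor of the SLAM family, differed by 1.96 (SE 0.15, adjusted p = 2.20e-08). KLRD1, the CD94 chain of NKG2 receptors, and NCR1, the natural killer receptor NKp46, were low in the chosen cells (up to 0.566 and 0.181). Both were lower still in the other T cells (up to 0.109 and 0.0182). Their differences of 3.1 and 4.08 rest on these low levels. KLRD1 starts 6697 bases from the end of KLRK1, a gene of the choice, and whether reads of the pair were shared was not tested, so its difference is not given as independent of the choice. FCGR3A, the Fc receptor CD16, went the other way, with levels of 3.19, 5.52, 3.99, 5.73 and 3.59 against 4.75, 4.54, 4.96, 11 and 13.8 (-0.76, SE 0.18, adjusted p = 0.00829), and did not pass without d14 (-0.69) or with DESeq2 (-0.74). TIGIT, an inhibitory receptor, was lower as well (-1.19, SE 0.18, adjusted p = 8.10e-05).

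Some genes outside the lists, named by the size of the difference, lie near KLRK1 on chromosome 5 of Sscrofa11.1 (chr5:61646691-61655386). LOC100523789 (chr5:61621869-61633693) ends 12998 bases before KLRK1, LOC106507519 (chr5:61556621-61567181) lies further to the same side, and LOC100519314 (chr5:61724744-61736667) lies to the other. Their levels in the chosen cells were between 0.446 and 3.38, and their log2 differences from the other T cells were 3.72, 3.69 and 2.78. KLRK1 took part in the choice, and whether reads of KLRK1 and these genes were shared was not tested, so their differences are not given as independent of it.

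CCL5 carried the largest signal of all. This chemokine, which attracts T cells and monocytes, had levels of 187, 82.9, 147, 179 and 224 in the chosen cells and 51.4, 5.97, 23.3, 46.8 and 84.1 in the other T cells. It was higher in each library, and across libraries the groups overlapped only in that the chosen cells of d1 lay just below the other T cells of d21 (2.29, SE 0.20, adjusted p = 6.46e-08). Helper cytokines lay on the other side. Of the 16 cytokine and chemokine genes tested, 2 were higher (CCL5 and CCL4) and 9 lower, with a median of -0.91. IL10, an inhibitory cytokine, had levels of 0, 0, 0.151, 0.265 and 0.227 against 0, 0.357, 1.37, 2.37 and 1.94 (-3.13, SE 0.14, adjusted p = 2.21e-11). IL17A (-2.88) and IL17F (-2.27), cytokines of type 17 helper cells, were lower at d1, d7, d14 and d21 and at 0 in both groups at d0. TNF was lower in 5 of 5 libraries (-0.96, SE 0.19, adjusted p = 0.00119). IFNG, the interferon typical of cytotoxic cells, was hardly seen in either group, with at most 0.223 in the chosen cells, and did not pass (0.29, adjusted p = 0.725).

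Cytokine receptors split in the same manner, with 2 of 15 higher, 7 lower and a median of -0.57. IL2RB, the chain shared by the receptors for IL-2 and IL-15, had 3.37, 1.87, 3.60, 3.06 and 3.59 against 1.26, 0.612, 1.80, 1.92 and 2.51 (0.88, SE 0.12, adjusted p = 2.64e-05). IL2RA, the high-affinity IL-2 chain, was lower in each library (-1.85, SE 0.17, adjusted p = 1.02e-07). IL7R, the receptor for the survival factor IL-7, had 1.49, 1.53, 1.09, 0.628 and 0.361 against 4.15, 4.69, 2.76, 1.82 and 2.17. The groups did not overlap (-1.73, SE 0.14, adjusted p = 2.21e-08).

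Gut homing and residency genes were higher in 8 of 20 cases and lower in 4, with a median of 0.17. ITGAE had levels of 1.70, 0.836, 1.96, 1.55 and 1.94 against 0.601, 0.612, 0.478, 0.521 and 0.930, higher in every library (1.50, SE 0.14, adjusted p = 1.61e-07). CCR9 had 0.647, 0.112, 0.719, 0.520 and 0.471 against 0.180, 0.0510, 0.130, 0.0946 and 0.127 (2.28, SE 0.15, adjusted p = 1.19e-09). CD101 (1.55) and GPR18 (1.18), surface molecules of intraepithelial T cells, were also higher in 5 of 5 libraries. ITGB7, the integrin partner of CD103, did not pass (-0.30, adjusted p = 0.0754). CD69, an early activation and residency marker, was lower (-0.97, SE 0.17, adjusted p = 0.000311), as was CCR6 (-2.02), a chemokine receptor of type 17 cells. Genes of naive and recirculating T cells were lower in 6 of 11 cases and higher in 1. CCR7, the receptor for lymph node entry, had levels of 0.0446, 0.139, 0.339, 0.102 and 0.131 against 1.14, 1.02, 1.86, 0.336 and 0.236 (-1.87, SE 0.23, adjusted p = 6.65e-06), and LEF1 (-1.47) and S1PR1 (-1.42) were lower in each library too. CDH1, the E-cadherin gene of epithelium and the partner of CD103, was low in the chosen cells, at 0.173 to 0.446, but higher than in the other T cells in each library (1.58, SE 0.24, adjusted p = 9.47e-05), the only one of 4 tested partner genes to pass.

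Among 24 transcription factors 5 were higher and 8 lower. RUNX3, which directs the CD8 lineage, differed by 1.00 (SE 0.12, adjusted p = 3.34e-06), TBX21, the master factor of type 1 and cytotoxic cells, by 1.35 (SE 0.23, adjusted p = 0.000302), and IKZF2, also known as Helios, by 1.06 (SE 0.12, adjusted p = 1.64e-06), each in 5 of 5 libraries. FOXP3, the factor of regulatory T cells, had levels of 0, 0, 0.0201, 0.0263 and 0.0123 against 0.180, 0.153, 0.329, 0.356 and 0.145 (-3.76, SE 0.23, adjusted p = 6.21e-10). BATF was lower (-1.17). Of 15 activation and checkpoint genes, 10 were lower and 3 higher. The former included TNFRSF4, the OX40 receptor of helper cells (-3.35), CTLA4 (-3.23), ICOS (-2.54) and PDCD1 (-2.10), and the latter TNFRSF9, the 4-1BB receptor (1.13, SE 0.16, adjusted p = 3.84e-05, higher in 4 of 5 libraries). The comparison group thus held the helper and regulatory T cells, and a difference from it is a difference from that mixture. Genes of dissociation and stress were lower in 7 of 11 cases and higher in 0, with HSP90AA1 at 19.8, 17.3, 24.4, 34.3 and 53.2 against 20.9, 27.5, 35.2, 51.1 and 89.0. The part of this in the other differences was not tested.

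Rises outside the lists included CISD3, an iron-sulfur protein of mitochondria (2.47), SPRY2, an inhibitor of receptor tyrosine kinase signals (2.23), ADGRG1, an adhesion receptor of cytotoxic lymphocytes (2.22), and CHN2 (2.22). The falls beyond the lists were FURIN (-2.17), a protease that activates precursors of growth factors, CSF1 (-2.09), a macrophage growth factor, BLK (-1.89), a kinase of the SRC family, and the neighbours LOC100627879 (-2.20) and C9H1orf186 (-2.07) on chromosome 9.

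**Figure D2:**
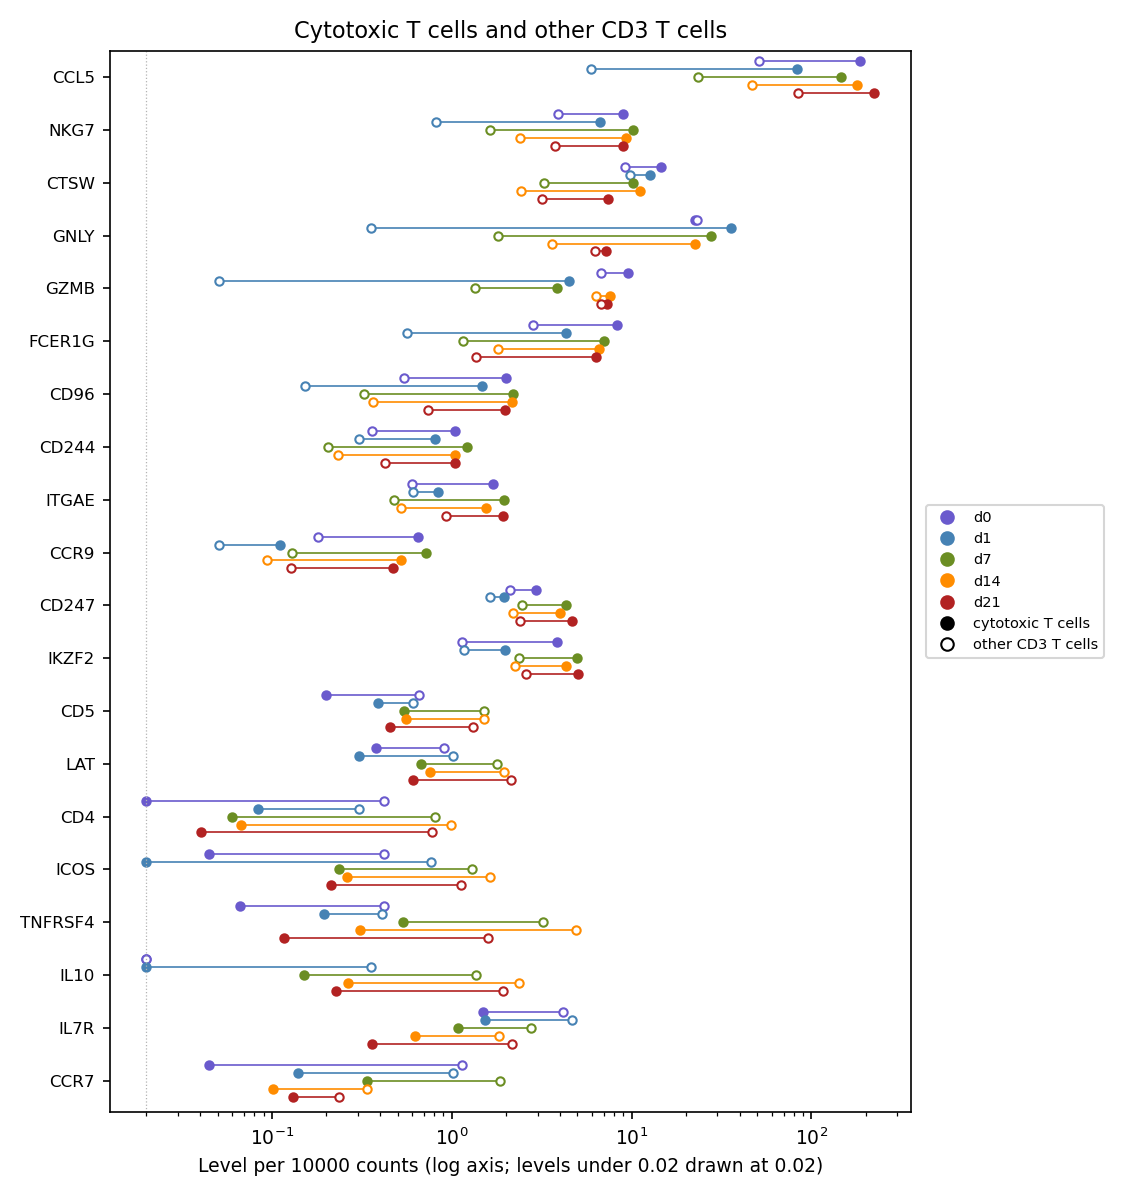
Levels per 10000 counts (log axis) of 20 genes in the cytotoxic T cells (filled) and in the other CD3 T cells (open), 1 line per library. For CCL5, NKG7, FCER1G, CD96, ITGAE and CCR9 the filled point lies to the right in each library, for CD4, CD5, LAT and IL7R it lies to the left, and for GNLY the points meet at d0 and d21.

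A second comparison set the chosen cells against cells that passed the same limits for the 4 cytotoxic genes, division and EPCAM but had no UMI of CD3E or CD3G. These CD3-negative cytotoxic cells numbered 71, 157, 431, 526 and 644, with median depths of 2168, 2989, 1872, 3786 and 1664 UMIs, less deep than the chosen cells in all libraries but d1. A cell of low depth can miss CD3 by chance, so the group can hold T cells next to NK cells and innate lymphoid cells. The chosen cells are the same as in the first comparison, and the 2 comparisons share them. Of 9857 genes tested, 230 (2.33%) were higher and 492 (4.99%) lower in the chosen cells. These counts were 91 and 280 without the d7 library, 85 and 240 without the d14 library, 216 and 478 without shared barcodes, and 121 of 6489 and 321 of 6489 genes without cells carrying 2 or more UMIs of other cell types.

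Of the T cell receptor genes 8 of 13 were higher and 0 lower, with a median of 1.07 against -0.01 for all genes tested. CD3D, among the 8, lies between CD3E and CD3G, which took part in the choice. Whether reads of these genes were shared was not tested, so its difference is not given as independent of the choice. It did not pass without d7 (1.08) or without d14 (0.95). Of the 8 cell cycle genes, 4 were higher and 0 lower (median 0.52), namely BIRC5 (1.03), TYMS (0.95), STMN1 (0.68) and MCM5 (0.55), of which only STMN1 was higher in 5 of 5 libraries. MCM5 did not pass in 6 of 13 alternatives, BIRC5 in 3 and TYMS in 1. Cells with 2 or more UMIs of MKI67 and TOP2A had been left out of both groups. Of 13 activation and checkpoint genes, 4 were higher and 1 lower. CD247 was at 0.501, 0.540, 1.55, 0.779 and 1.71 in the CD3-negative cells, below the lowest chosen library throughout (1.89, SE 0.15, adjusted p = 1.94e-08). LCK (1.11), CD5 (1.07), CD6 (1.58), CD8A (1.32) and CD8B (2.36, SE 0.32, adjusted p = 3.79e-05) were each higher in 5 of 5 libraries. LOC102160313 (chr7:76554354-76565679), a gene without a symbol, had levels of 10.8, 4.29, 12.0, 19.0 and 15.5 in the chosen cells, 1.50, 0.112, 2.05, 0.877 and 4.14 in the CD3-negative cells and 0.279 or less in epithelial cells (3.16, SE 0.27, adjusted p = 6.00e-08). It also differed within the chosen cells, as described below.

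Granule genes were split between the groups. GZMB had levels of 3.51, 1.79, 2.65, 1.87 and 1.90 in the CD3-negative cells and was higher in the chosen cells in each library (1.51, SE 0.18, adjusted p = 4.82e-06). GZMA (2.10) and GZMH (1.26) were higher too. GNLY lay at 30.1, 39.2, 39.1, 60.0 and 24.5 in the CD3-negative cells, above the chosen cells of the same library each time (-0.82, SE 0.17, adjusted p = 0.00363), though in cells of 2000 to 8000 UMIs the difference of -0.66 did not pass. NKG7 (0.34, adjusted p = 0.126) and PRF1 (-0.07, adjusted p = 0.846) did not pass. CCL5 was at 91.5, 54.8, 102, 108 and 110 in the CD3-negative cells, lower than in the chosen cells of each library (0.82, SE 0.14, adjusted p = 0.000372). That difference was 0.56 and did not pass without cells carrying UMIs of other types.

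NK receptors were lower in 8 of 17 cases and higher in 1. KLRB1, the lectin receptor CD161, had levels of 0.468, 0.418, 1.27, 1.05 and 0.380 in the chosen cells and 3.45, 4.84, 6.82, 9.51 and 2.18 in the CD3-negative cells, with no overlap (-2.76, SE 0.16, adjusted p = 1.29e-10). NCR1 (-2.74, SE 0.22, adjusted p = 2.05e-08) and the adaptor TYROBP (-1.58, SE 0.13, adjusted p = 3.16e-08) were lower in each library, while FCER1G (-0.25, adjusted p = 0.274) and CD244 (0.17, adjusted p = 0.484) did not pass. Of the 6 ILC3 genes 5 were lower, with a median of -1.98, among them NCR2 (-2.30), the receptor NKp44. The transcription factor EOMES was lower (-1.65, SE 0.23, adjusted p = 4.92e-05), and so were the receptors IL2RA (-2.00) and IL7R (-1.20). ITGAE (1.38, SE 0.17, adjusted p = 9.08e-06) and CCR9 (1.70, SE 0.20, adjusted p = 6.94e-06) were higher than in the CD3-negative cells as well. The checkpoint genes PDCD1 (3.09), LAG3 (2.52) and TNFRSF9 (1.70) were higher. Outside the lists, the rises included IGFBP2, an insulin-like growth factor binding protein (2.95). TAC3, which encodes neurokinin B, led the falls, with levels of 0.156, 0.669, 0.657, 0.146 and 0.00618 against 16.3, 7.58, 10.8, 2.83 and 0.574 (-4.56, SE 0.26, adjusted p = 1.27e-10). It was followed by SCIN (-3.70), an actin-severing protein, and CD109 (-3.39).

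**Figure D3:**
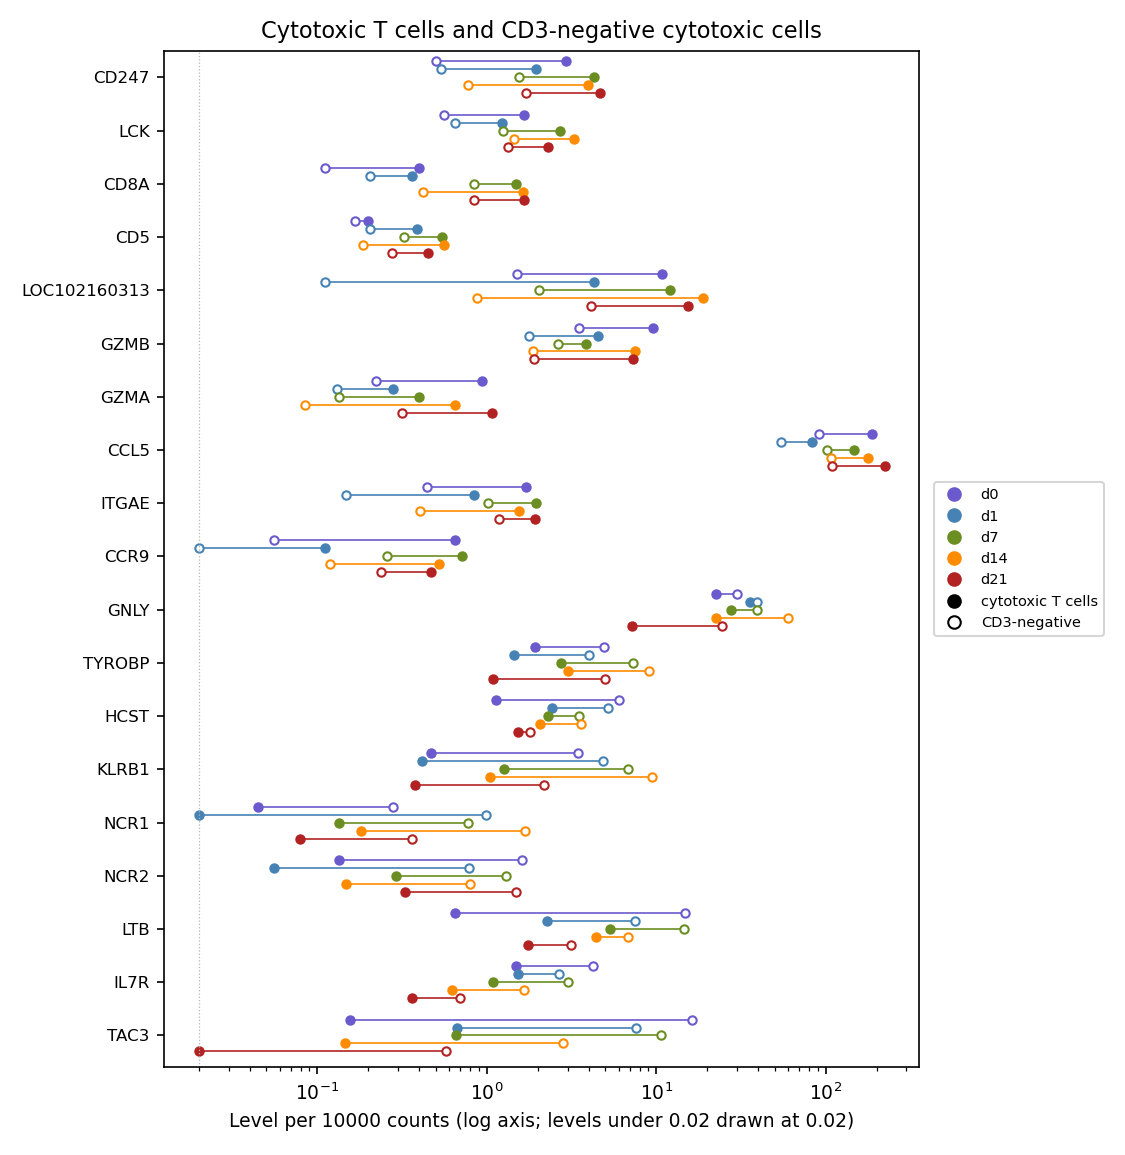
Levels per 10000 counts (log axis) of 19 genes in the cytotoxic T cells (filled) and in CD3-negative cytotoxic cells (open), 1 line per library. CD247, CD8A, GZMB and ITGAE lie to the right in the T cells and KLRB1, NCR1, TYROBP and TAC3 to the left in each library.

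The chosen cells were not uniform. GNLY and GZMB were held by few of them, as was GZMH from d7 on, whereas CCL5, NKG7 and the granule protease CTSW were spread widely. The 10% of cells with the highest GNLY counts held 83.6%, 91.0%, 95.7%, 95.2% and 96.3% of all GNLY counts at d0 to d21, and the 10% highest for GZMB held between 76.6% and 88.3%. For GZMH the top 10% held 59.52%, 54.55%, 93.25%, 83.5% and 92.65% at d0 to d21. For CCL5 the top 10% held between 23.5% and 28.4%, for NKG7 between 29.9% and 32.5% and for CTSW between 27.5% and 36.1%. The most extreme cell carried 529 UMIs of GNLY at d7. To describe these cells, those with at least 5 UMIs of GNLY were set beside those with none. The split was chosen after the values were seen and is a description without a test. GNLY-positive cells by this limit numbered 29, 16, 142, 263 and 209, which was 16.4%, 14.8%, 12.7%, 13.3% and 6.03% of the chosen cells, and the depth of both was similar (medians of 2242, 2914, 4586, 4228 and 4788 UMIs against 2278, 2803, 4148, 4282 and 4430).

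GZMB had levels of 54.1, 19.6, 13.9, 17.5 and 29.6 in the GNLY-positive cells and 0.815, 0.411, 2.34, 5.23 and 5.13 in the cells without GNLY. GZMH, a further granzyme, had 25.8, 6.53, 3.11, 4.23 and 3.51 against 2.74, 1.58, 0.404, 1.40 and 0.896. NKG7, PRF1, TBX21, TYROBP and KLRB1 were higher in the GNLY-positive cells of all 5 libraries. CCL5 was not part of the pattern, at 167, 88.0, 179, 200 and 245 against 191, 81.2, 142, 177 and 223. Of 7431 genes with a mean level of at least 0.1 in the chosen cells, 576 (7.75%) were higher and 544 (7.32%) lower in the GNLY-positive cells of all 5 libraries. Of 12 such genes of granules and death ligands other than GNLY, 7 were higher and 0 lower. Of 12 genes of the T cell receptor complex, 0 were higher and 3 lower in all 5 (CD247, CD2 and THEMIS), and of 19 genes of homing and residence, 1 was higher (ITGB1) and 3 lower (ITGAE, CD69 and CXCR3). The others were mixed, such as CD8A, which was higher in the GNLY-positive cells at d1, d7 and d21 and lower at d0 and d14. CD247 had levels of 0.870, 0.335, 1.81, 1.86 and 2.79 in the GNLY-positive cells against 3.39, 2.33, 4.80, 4.36 and 4.89, and ITGAE had 0.580, 0.335, 0.599, 0.737 and 1.52 against 1.79, 0.926, 2.23, 1.71 and 2.00. Of 21 transcription factors 6 were higher and 6 lower in all 5 libraries, IKZF2 and the inhibitor of DNA binding ID3 among the latter, and of 9 naive and recirculating genes 0 were higher and 4 lower. Of 12 NK receptors and adaptors 2 were higher (TYROBP and KLRB1) and 0 lower. CCR9 was lower in all libraries but d1. LOC102160313 had 1.30, 0.167, 2.40 and 8.79 against 12.7, 5.25, 13.4 and 20.9 at d0 to d14, but 16.0 against 15.6 at d21. In CD247, ITGAE, TYROBP and KLRB1, picked after their values were seen, the GNLY-positive cells differed in the direction of the CD3-negative cytotoxic cells, and in GZMB and GZMH in the opposite one. The GNLY-positive cells had a median of 3, 2, 4, 5 and 7 UMIs of CD3E and CD3G, against 4, 3, 6, 8 and 7 in the cells without GNLY. At the CD3 limit of the choice, GNLY had a level of 46.4 in cells with 1 CD3 UMI, 52.0 with 2 and 12.6 with 3 or more, pooled over the libraries. Within each library it was lower in the cells with 3 or more CD3 UMIs (17.3, 28.0, 24.2, 16.4 and 6.52) than in those with 2 (39.6, 53.9, 55.4, 105 and 17.1). Whether cells with free CD3 RNA or doublets were among them was not tested.

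**Figure D4:**
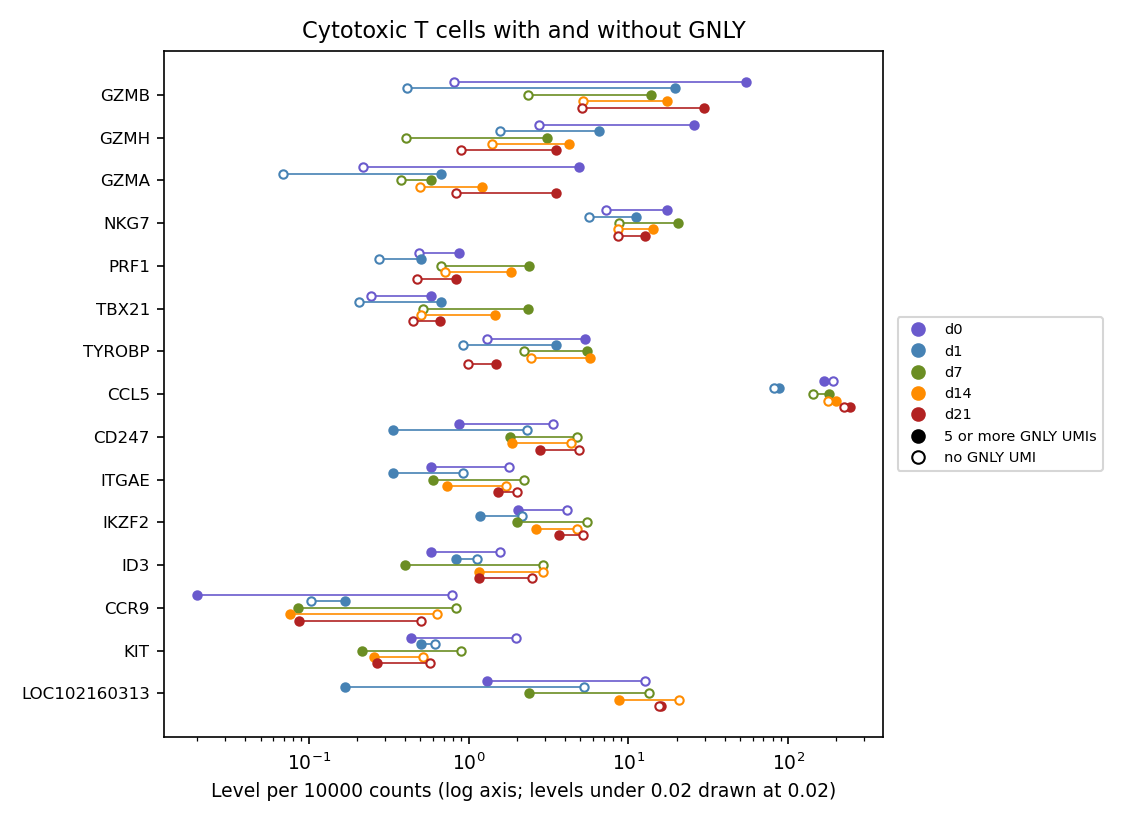
Levels per 10000 counts (log axis) in cytotoxic T cells with 5 or more UMIs of GNLY (filled) and with none (open), 1 line per library. Granzymes, NKG7, PRF1, TBX21 and TYROBP lie to the right in the GNLY-positive cells and CD247, ITGAE, IKZF2 and ID3 to the left, while LOC102160313 meets at d21.

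Between ages, genes were called where the levels differed by at least 2-fold (with 0.1 added to both), the intervals lay apart and the level was at least 0.5 at either age. These calls compare 2 libraries and not 2 groups of piglets. Of 2966 genes, 47 (1.58%) were higher and 32 (1.08%) lower at d21 than at d7, and 22 and 15 with 0.5 added instead of 0.1. The largest rises were LOC100152327 (0.818 at d7, 30.6 at d14 and 47.3 at d21) and JCHAIN (0.0328, 3.58 and 5.42). Both are abundant in other cells of these libraries. LOC100152327 had a level of 9.52, 221 and 71.7 over the whole d7, d14 and d21 libraries, and a single chosen cell held 21.2% of its counts at d21. In the other CD3 T cells LOC100152327 was at 1.69, 91.2 and 7.86 and JCHAIN at 0.0123, 8.87 and 2.81 at these ages. Both were thus above the chosen cells at d14 and below them at d21. ACTA2, CALD1 and COL4A1, genes of smooth muscle and stroma, were also among the 8 largest rises, together with the stress genes ZFAND2A, BAG3 and HSPH1. HBB had the largest fall, from 34.5 at d7 to 1.27 at d21, and stood at 45.7 and 2.22 in the whole libraries. FABP1, LGALS3 and HBM followed the whole libraries in the same manner.

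Among genes of cytotoxic lymphocytes GNLY was lower at d21, with levels of 27.5 at d7, 22.6 at d14 and 7.20 at d21 (log2 ratio -1.92). In the other T cells its levels at these ages were 1.81, 3.59 and 6.26, in the opposite order. The thinned share of chosen cells with GNLY was 16.6% at d7, 17.8% at d14 and 11.2% at d21, and 23.7%, 28.2% and 23.7% without thinning. In thinned epithelial cells, which should lack GNLY, the share was 1.78%, 3.70% and 3.54% at these ages, and 16.0%, 21.5% and 16.6% without thinning, at the greater depths given above. KLRB1 (1.27 to 0.380), TYROBP (2.74 to 1.09), CD7 (2.92 to 1.10), GZMM (0.739 to 0.214) and IL7R (1.09 to 0.361) were lower at d21 as well, and all but GZMM and CD7 are among the genes that were higher in CD3-negative cytotoxic cells. LTB, lymphotoxin beta, went from 5.32 to 1.75, TAC3 from 0.657 to 0.00618 and IL17A from 0.688 to 0.0595. TAC3 and IL17A were also lower at d21 in the other CD3 T cells (0.427 to 0.0545 and 2.20 to 0.691). The whole libraries moved the same way (1.32 to 0.0676 for TAC3 and 0.423 to 0.119 for IL17A). At d0, however, LTB was at 0.647, below its level at d21. GZMA (0.400 to 1.07), KLRD1 (0.153 to 0.566), CD69 (0.407 to 1.12), NR4A2 (1.83 to 4.04) and RGS2 (1.49 to 3.81) were higher at d21. With 0.5 added, the ratios of GZMA, KLRD1, CD69, NR4A2, GZMM and IL7R were under 2-fold and their calls were lost. Of 8 T cell receptor genes with a level, 0 were called in either direction, and of 11 stress genes 3 were higher. HSP90AA1 was one of them, at 24.4 at d7 and 53.2 at d21, and the part of stress in the other calls was not tested. CCL5 (147 to 224), NKG7 (10.2 to 8.93) and ITGAE (1.96 to 1.94) stayed within 2-fold.

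Against the newborn library, 228 (8.11%) of 2811 genes were higher and 95 (3.38%) lower at d21, a comparison added after the values were seen and resting on 177 cells at d0. With 0.5 added instead of 0.1, these counts were 71 and 45. The interferon-induced genes IFI6 (0.847 at d0, 35.6 at d7 and 36.7 at d21) and MX1 (0.0446, 4.37 and 3.58) were among the 8 largest rises, and the whole libraries moved with them (0.568, 22.7 and 32.1 for IFI6). The heat-shock genes BAG3 (0.201 at d0 and 4.79 at d21), HSPA6 (0.624 and 11.5) and HSP70.2 (1.63 and 27.1) were among the same 8, and DNAJB1 and HSP90AA1 were called higher too. Their part in the other calls was not tested. Among the 8 largest falls, FABP1, PRAP1, DISP2, S100G, LGALS3 and TMIGD1 were far higher in the whole newborn library than in the chosen cells. GPRC5D, an orphan G protein-coupled receptor, was the reverse, at 0.647 in the chosen cells of d0 on 29 counts and 0.00899 in the whole library, with no count in the chosen cells at d21. Of the T cell genes, CD8A was higher at d21 (0.401 at d0, 0.362 at d1 and 1.65 at d21), as were ITGB7 (0.401 to 1.20), ITGA1 (0.201 to 0.736), TNFRSF9 (0.112 to 0.581), TNFRSF18 (0.468 to 1.51), AHR (0.223 to 0.591) and RORA (0.914 to 1.99). With 0.5 added, the calls of ITGB7, ITGA1, TNFRSF9, AHR and RORA were lost, and so was that of GPR18. RGS1, a regulator of chemokine receptor signals in resident T cells, had its highest level at d0 (20.3, 11, 5.30, 4.61 and 8.52 from d0 to d21). GZMH (6.44, 2.45, 0.730, 1.79 and 1.08), SOX4 (3.61 to 0.898), KIT (1.72 to 0.566), GPR18 (1.32 to 0.523) and NR4A2 (9.16 to 4.04) were also lower at d21 than at d0. RGS1 and NR4A2 were both lowest at d14 and higher again at d21. GZMB had its lowest level at d7 and was within 2-fold at d0 and d21. The order of CCL5 was d1, d7, d14, d0 and d21, with intervals apart for each neighbouring pair.

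**Figure D5:**
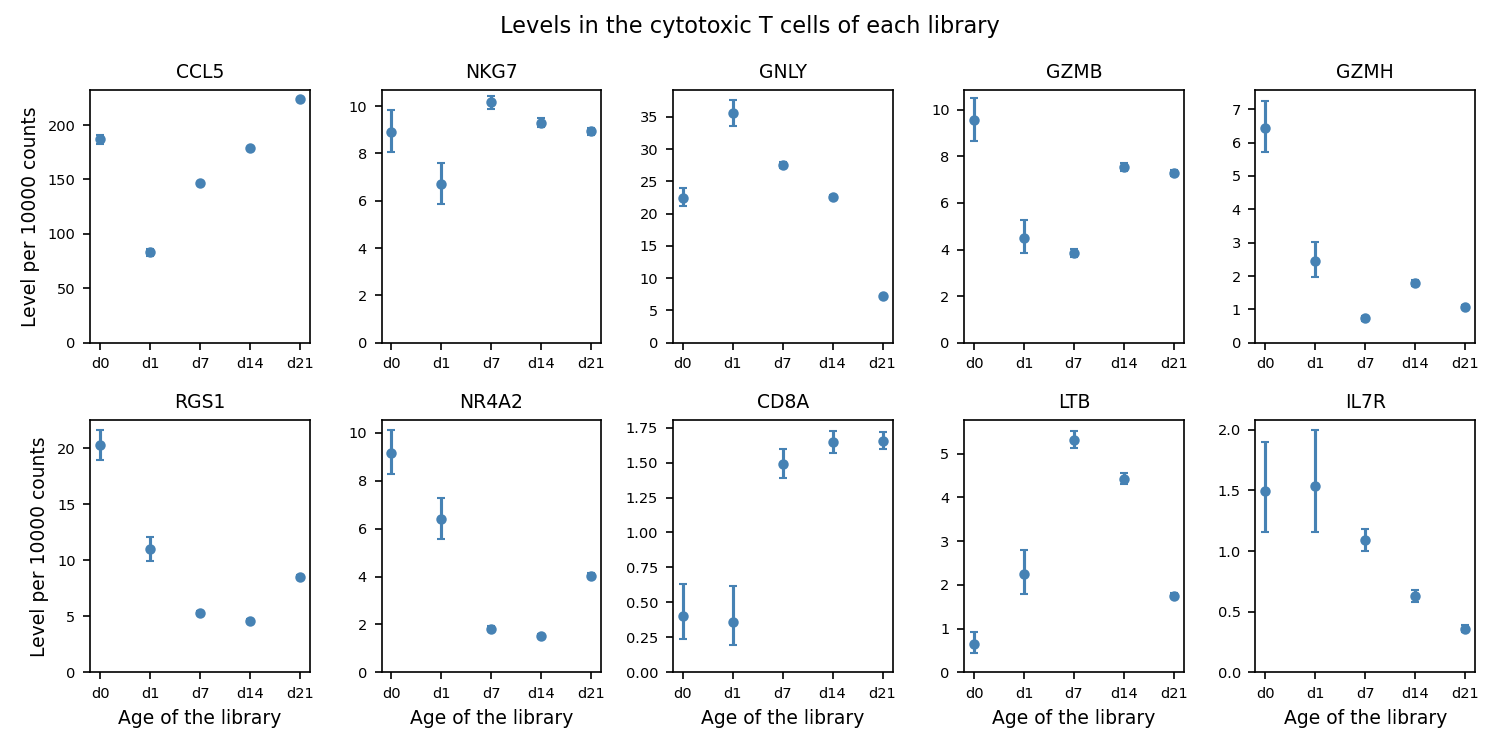
Levels per 10000 counts of 10 genes in the cytotoxic T cells of each library, with exact 95% Poisson intervals for counting error only and axes from 0. GNLY is at 35.5 at d1 and at 7.20 at d21, CD8A lies at 1.49 or above from d7 on, and GZMH, RGS1 and NR4A2 are highest at d0.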

How the data were processed

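The authors made counts of UMIs per gene and barcode with Cell Ranger 3.1.0 and STAR on Sscrofa11.1 and deposited 1 matrix of unnormalized counts per library, for 20648 genes. The methods state a forced cell number that is below the 15350, 14142, 10824, 16273 and 16975 barcodes of the matrices, and they and the labels differ on the version of the 10x kit. Cells of at least 200 genes were kept, which left 15218, 14142, 10272, 16177 and 16892 cells. Doublets were not removed and the libraries were not integrated. The members, the comparison groups and the 21 gene lists were chosen with earlier results of these data known. The lists hold 246 genes, of which 232 are in the matrices.

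Sums per library and group, of at least 10 cells each, were tested with edgeR 4.0.16 (quasi-likelihood, TMM, filterByExpr, library as block, Benjamini-Hochberg over all genes tested, the 9 genes of the rule left out) in R 4.3.3. DESeq2 1.42.0 was an alternative. Exact Poisson and Clopper-Pearson 95% intervals came from SciPy 1.17.1. Any list gene may be named, and beyond the lists the 10 largest differences per direction with an adjusted p under 0.05, a size of at least 1, the same sign in every library and a mean level of at least 0.5, and for ages the 8 largest. Some genes that this rule admits are not reported here. In simulated data for the comparison with other CD3 T cells, 197 of 200 changed genes among 11817 were recovered (97 of 100 at 2-fold). Of 11617 unchanged genes, 4 were called. How often genes are missed or wrongly called in the measured cells, sorted by genes of the same cells, was not tested. In simulated data the rule for ages recovered 200 of 200 among 2656 genes with 0 of 2456 called wrongly. With 1 library per age, variation between libraries or piglets could not be estimated. These last counts are therefore not an error rate for the calls between ages. Gene positions are from RefSeq for Sscrofa11.1, matched by symbol.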

Additional observations from a re-analysis of the deposited data

How the results depend on the processing

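The share among CD3 cells at d21 over d7 was 0.37 on the log2 scale and 0.29 with at least 1 UMI of the 4 genes, 0.29 with at least 1 CD3 UMI and 0.17 after thinning. At d7 over d1 it was -0.20, and -0.45 after thinning and 0.14 without cells of 2 UMIs of other types. The share among kept cells at d21 over d7 was 0.91, and 0.81 both with at least 1 CD3 UMI and in cells of at least 500 genes. At d7 over d1 it was 3.84, 3.12 with EPCAM not used and 2.31 without cells of other types. The last setting also left fewer kept cells, 486 at d1 and 3161 at d7. With a pseudocount of 0.5, 22 and 15 genes were higher and lower at d21 than at d7 (47 and 32 with 0.1) and 71 and 45 than at d0 (228 and 95). With no minimum level these were 83 and 63, and 528 and 247. Against other CD3 T cells DESeq2 called 386 genes higher, and NCR3 had -0.15 there against 1.10 with edgeR. Leaving out 1 library gave 335 to 609 higher and 430 to 727 lower. Against CD3-negative cells, 420 genes were higher without a filter, 121 higher and 321 lower without cells of other types, and leaving out 1 library gave 85 to 313 higher and 240 to 579 lower. The causes were not tested, though fewer cells or genes entered several of these settings. Between ages no paired analysis was possible, because each age is 1 library and the replicate numbers pair nothing. The tests between cell groups were already paired within libraries through the library block. The d0 and d1 libraries held the fewest chosen cells (177 and 108), which limits the levels given for them.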

Other observations

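For some abundant transcripts of other cell types, a single cell held a large part of the counts of a group. In the other CD3 T cells of d0, HBB had 391 counts, of which 1 cell held 388. In the chosen cells of d7, by contrast, HBB was found in 386 of 1122 cells, and the highest cell held 15.0% of its counts. In the chosen cells of d14, a single cell held 33.8% of the JCHAIN counts and a single cell held 30.5% of those of LOC100152327, which had a UMI in 1710 of the 1971 cells.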
